A study of Mus musculus with 2 samples.

Results

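The vascular endothelial growth factor (VEGF) ligands and their receptors were followed through the cells of the mouse aorta by droplet single-cell RNA sequencing. The 9 genes, Vegfa, Vegfb, Vegfc, Vegfd, Flt1, Kdr, Flt4, Nrp1 and Nrp2, were taken by symbol from the 32285 genes in the tables, and each matched 1 entry. The study compared 1 library of knock-in mice, whose matrix Gla protein (MGP) is mutated, with 1 library of wild-type mice. MGP is a secreted inhibitor of calcification that binds bone morphogenetic proteins. Mice of both sexes were 1 month old, the outer layer of the aorta (the adventitia) was dissected away, the rest was digested with Liberase, and dead cells that took up DAPI were sorted out. The batch label is 1 and the same for both. Which residue is mutated and how many mice went into a library is not stated in the sources used here.

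VEGF ligands are secreted dimers that bind receptor tyrosine kinases on the surface of endothelial cells. VEGF-A signals mainly through KDR (VEGFR2), which drives blood vessel growth, while FLT1 (VEGFR1) binds VEGF-A, VEGF-B and placental growth factor tightly and signals weakly, so that it can act as a decoy. VEGF-C and VEGF-D bind FLT4 (VEGFR3), the receptor of lymphatic endothelium, and after proteolytic processing KDR as well, although mouse VEGF-D binds FLT4 alone. Neuropilins, NRP1 and NRP2, are co-receptors that hold VEGFs next to the kinases and also bind class 3 semaphorins.

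The knock-in library held 85831737 unique molecular identifiers (UMIs, 1 per captured RNA molecule) and the wild-type library 79626104. After filtering, 6089 knock-in cells (median 11650 UMIs) and 3588 wild-type cells (median 20396 UMIs) remained, and 4 cell barcodes occurred in both libraries. The cells formed 10 clusters, none of them defined with any of the 9 genes. Named by marker genes, they gave 2338 knock-in and 235 wild-type SMC-like cells (smooth muscle), 2450 and 2623 fibroblast-like cells in 3 clusters, 292 and 351 macrophage or monocyte-like cells, and 46 and 64 endothelial-like cells. The other 4 clusters stayed unnamed. The defining markers were present in both libraries. Myh11 stood at 4369 CPM (counts per 1000000 UMIs of the same cells) in knock-in and 3324 CPM in wild-type SMC-like cells, the collagen-binding Dcn at 9924 and 7327 CPM in fibroblast-like cells, Lyz2 at 7566 and 7769 CPM in macrophages, and Pecam1 at 2824 and 2566 CPM in endothelial-like cells. Mgp itself was read at 15110 CPM in knock-in and 12200 CPM in wild-type cells of the largest fibroblast cluster, and these counts do not separate transcripts with and without the mutation. Fibroblast-like cells made up 40.2% of the knock-in and 73.1% of the wild-type cells although the adventitia was removed, and SMC-like cells 38.4% and 6.55%. Cells with Xist and no Y-linked UMIs (female) made up 46.0% of the knock-in and 32.6% of the wild-type library, and cells with Y-linked and no Xist UMIs (male) 33.5% and 56.7%.

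With 1 library per genotype no difference below has a replicate check. Levels are given as CPM, and the 95% intervals of CPM ratios cover counting error only. Fewer cells of a kind within a cluster and less RNA per cell of that kind give the same CPM. A gene was counted as higher or lower where it had at least 20 UMIs over both libraries and its CPM differed by at least 1.5-fold. UMIs are counted at transcript ends and not per length, so levels are compared between cells and not between genes.

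The promoters of the 3 receptor kinases are shown because, of the 4 named classes, endothelial-like cells had the highest level of all 3 genes, where ETS-family factors are known to act through the core letters GGAA. The 250 bases before each gene's start, from RefSeq on GRCm38.p6, which is not known to be the build behind these tables, read 5′ to 3′ on the gene's strand as follows, with GGAA and its reverse complement TTCC in capitals. The promoter of Vegfd is shown with them because 1 fibroblast cluster held most of its UMIs, and its capitals mark TATAAA.
Flt1, chr5:147726012-147726261, minus strand: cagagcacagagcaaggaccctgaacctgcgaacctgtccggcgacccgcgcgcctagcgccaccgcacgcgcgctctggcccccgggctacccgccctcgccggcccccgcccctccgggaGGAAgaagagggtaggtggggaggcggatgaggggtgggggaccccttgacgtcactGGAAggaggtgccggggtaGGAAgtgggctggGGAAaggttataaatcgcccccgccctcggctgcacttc
Kdr, chr5:75978456-75978705, minus strand: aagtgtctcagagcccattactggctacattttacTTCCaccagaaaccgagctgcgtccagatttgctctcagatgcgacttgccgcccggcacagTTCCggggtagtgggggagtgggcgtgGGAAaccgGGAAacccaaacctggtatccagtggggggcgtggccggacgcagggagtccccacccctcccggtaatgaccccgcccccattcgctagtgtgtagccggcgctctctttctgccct
Flt4, chr11:49609429-49609678, plus strand: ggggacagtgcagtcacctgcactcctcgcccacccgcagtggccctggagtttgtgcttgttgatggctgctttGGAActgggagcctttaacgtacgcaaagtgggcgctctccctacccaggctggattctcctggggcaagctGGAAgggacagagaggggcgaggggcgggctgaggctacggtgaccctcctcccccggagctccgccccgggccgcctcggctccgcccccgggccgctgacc
Vegfd, chrX:164373272-164373521, plus strand: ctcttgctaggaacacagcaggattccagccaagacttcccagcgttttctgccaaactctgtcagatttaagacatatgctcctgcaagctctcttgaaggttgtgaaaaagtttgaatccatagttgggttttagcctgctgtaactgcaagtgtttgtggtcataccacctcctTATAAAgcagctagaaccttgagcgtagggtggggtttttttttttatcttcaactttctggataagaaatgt

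GGAA on either strand stood 4 times before Flt1, 4 times before Kdr and 2 times before Flt4, but 93.5% of 32851 mouse promoters of this length hold it, with a median of 3 copies. TATAAA, searched on both strands, lay 73 bases before the Vegfd start and 31 bases before the Flt1 start, and 12.4% of promoters hold it. The Vegfd window was 42.4% G and C and the only 1 of the 9 genes' windows without GGGCGG, a motif of 32.7% of promoters. CACGTG and TGACTCA were in none of the 10 windows of the 9 genes (Vegfa has 2 starts), against 6.02% and 4.46% of all promoters. ACGTG, the core of the hypoxia response element, was in 16.6% of promoters and in 1 of the Vegfa windows, chr17:46025164-46025413. On the gene's minus strand that window lies downstream of the other Vegfa start. The window before that other start, chr17:46032378-46032627, held 0 copies. These are matches of letters, not tested binding sites.

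Vegfd, a ligand of lymphatic growth, was a fibroblast gene of this aorta. In fibroblasts led by Pex5l and Fmod it reached 369 CPM in the knock-in and 364 CPM in the wild-type library. This cluster held 77.0% of all knock-in and 81.2% of all wild-type Vegfd UMIs. In the fibroblasts led by C7 and Angptl1 Vegfd stood at 94.8 CPM in the knock-in and 72.1 CPM in the wild-type library, and in the fibroblasts led by Cd55 and Nav3 at 36.3 and 37.5 CPM. SMC-like cells had 20.3 CPM in the knock-in and 19.6 CPM in the wild-type library. The order of these 4 clusters was the same in both libraries, and the SMC-like level was below that of each fibroblast cluster. Macrophage or monocyte-like cells had 2.22 CPM in the knock-in and 2.04 CPM in the wild-type library. Barcodes with under 100 UMIs, which hold free RNA, carried Vegfd at 120 CPM in the knock-in and 133 CPM in the wild-type library, so macrophages held 1.84% and 1.54% of the free level.

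Thinned to 5000 UMIs per cell, 62.0% of knock-in (852 of 1374) and 61.3% of wild-type (818 of 1335) Pex5l/Fmod fibroblasts had a Vegfd UMI. The share was 0.704% in knock-in (2 of 284) and 0.295% in wild-type (1 of 339) macrophage or monocyte-like cells. The Vegfd level of these fibroblasts had a log2 ratio of knock-in over wild-type of 0.02 (95% interval -0.02 to 0.06). Within sexes the libraries parted. Female cells had 382 CPM in the knock-in and 280 CPM in the wild-type library (log2 ratio 0.45, 0.38 to 0.52), and male cells had 364 CPM in the knock-in and 412 CPM in the wild-type library (log2 ratio -0.18, -0.24 to -0.12). In the knock-in library the intervals of female and male cells overlapped, whereas in the wild-type library female cells were below male cells. Vegfd lies on the X chromosome. In cells of 8000 to 20000 UMIs the level was 386 CPM in the knock-in and 295 CPM in the wild-type library.

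Vegfc, the other ligand of FLT4, was shared between fibroblasts and endothelium. Pex5l/Fmod fibroblasts had 47.5 CPM in the knock-in and 75.9 CPM in the wild-type library, and held 57.3% and 70.4% of all Vegfc UMIs. The C7/Angptl1 fibroblasts had 27.1 and 27.8 CPM. In endothelial-like cells Vegfc stood at 142 CPM in the knock-in (68 UMIs) and 69.3 CPM in the wild-type library (62 UMIs). In the knock-in library the endothelial level was above that of each other cluster, while in the wild-type library it overlapped with that of the Pex5l/Fmod fibroblasts. SMC-like cells had 3.31 CPM in the knock-in and 7.29 CPM in the wild-type library, and macrophage or monocyte-like cells 0.554 and 0.371 CPM.

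Vegfa, the main blood vessel ligand, was low and spread out. In wild-type cells it was highest in the small Cd55/Nav3 fibroblast cluster, at 54.4 CPM, a level that overlapped with the 36.9 CPM of endothelial-like cells. In knock-in cells endothelial-like cells were highest, at 89.5 CPM, and no other cluster overlapped with them. SMC-like cells had 16.4 CPM in the knock-in and 13.7 CPM in the wild-type library. Macrophage or monocyte-like cells had 7 UMIs in the knock-in and 1 in the wild-type library, or 1.94 and 0.185 CPM, where free RNA carried 31.9 and 37.2 CPM. Vegfb, a ligand of FLT1 linked to fatty acid handling, was the most even of the 9 genes. It lay between 17.9 and 41.8 CPM over the 10 knock-in clusters and between 16.8 and 59.0 CPM over the wild-type clusters, and the highest wild-type value was in the unnamed cycling cluster.

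Flt1 was not confined to endothelium. Endothelial-like cells had 266 CPM in the knock-in (128 UMIs) and 175 CPM in the wild-type library (157 UMIs), the highest level in both. Pex5l/Fmod fibroblasts were next, with 72.0 CPM in the knock-in and 144 CPM in the wild-type library. They held 54.9% of knock-in and 82.9% of wild-type Flt1 UMIs, since they were far more numerous than endothelial-like cells. The C7/Angptl1 fibroblasts had 10.8 and 17.7 CPM, and the Cd55/Nav3 fibroblasts 5.87 and 5.14 CPM. SMC-like cells had 23.8 CPM in the knock-in and 17.5 CPM in the wild-type library, and macrophage or monocyte-like cells 0.554 and 0.741 CPM against a free RNA level of 22.4 and 35.3 CPM. Soluble and membrane-bound Flt1 were not told apart by these counts.

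Within the Pex5l/Fmod fibroblasts, cells with a Vegfd UMI had a Flt1 UMI more often than cells without. After thinning, 22.4% of knock-in cells with Vegfd had a Flt1 UMI, against 17.2% of those without Vegfd. In wild-type cells these shares were 43.2% and 33.1%. Vegfc also had UMIs more often in cells with Vegfd, with 22.3% against 16.9% in knock-in and 32.4% against 24.2% in wild-type cells. Nrp1 went the other way, with 58.2% against 64.9% in knock-in and 57.95% against 65.6% in wild-type cells. Cells of 1 library are not replicates, so these shares are a description.

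Kdr and Flt4, the 2 strong signalling receptors, were rare. The whole knock-in library held 42 Kdr UMIs in kept cells and 19 Flt4 UMIs, and the wild-type library 225 and 50. Kdr stood at 20.8 CPM in knock-in (10 UMIs) and 57.0 CPM in wild-type endothelial-like cells (51 UMIs), and Flt4 at 22.9 CPM (11 UMIs) and 49.2 CPM (44 UMIs). In the knock-in library both were below 2 CPM in each other cluster. In the wild-type library Flt4 was below 2 CPM in each other cluster, whereas Kdr reached 3.10 CPM in the C7/Angptl1 fibroblasts and had 74 UMIs in an unnamed cluster led by Sncg.

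Those 74 Kdr UMIs came from 8 wild-type cells that each carried UMIs of at least 3 mesothelial markers, such as Upk3b and Msln. The knock-in library held 0 such cells, before as well as after doublets were left out. All 8 cells had Kdr, with 1, 1, 3, 3, 5, 5, 18 and 38 UMIs among 13180 to 64792 UMIs per cell. The 8 cells had 2 Flt4 and 0 Flt1 UMIs. Without them the Sncg cluster held 0 Kdr UMIs in 243 knock-in and 50 wild-type cells, so all of its Kdr UMIs lay in the mesothelial-marker cells, a set picked out after the values had been seen.

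Most Nrp2 UMIs lay in macrophages, and Nrp1 was shared. Macrophage or monocyte-like cells had 490 CPM of Nrp2 in the knock-in and 342 CPM in the wild-type library, and held 81.6% and 83.9% of its UMIs. The few endothelial-like cells with lymphatic markers, described below, had 518 and 679 CPM from 29 and 36 UMIs. After thinning, 73.9% of knock-in (210 of 284) and 64.9% of wild-type macrophages (220 of 339) had an Nrp2 UMI. In Pex5l/Fmod fibroblasts the level was 11.1 CPM in the knock-in and 6.30 CPM in the wild-type library, and in SMC-like cells 1.59 CPM in both. Nrp1 stood at 397 CPM in knock-in and 480 CPM in wild-type endothelial-like cells. In macrophages it stood at 397 and 413 CPM, in Pex5l/Fmod fibroblasts at 238 and 220 CPM, in C7/Angptl1 fibroblasts at 182 and 195 CPM and in SMC-like cells at 34.8 and 28.0 CPM. Endothelial and macrophage levels of Nrp1 overlapped in the knock-in library. Macrophages thus carried both neuropilins, with 2 Flt1 and 2 Kdr UMIs in the knock-in and 4 Flt1 and 7 Kdr UMIs in the wild-type library.

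**Figure D1:**
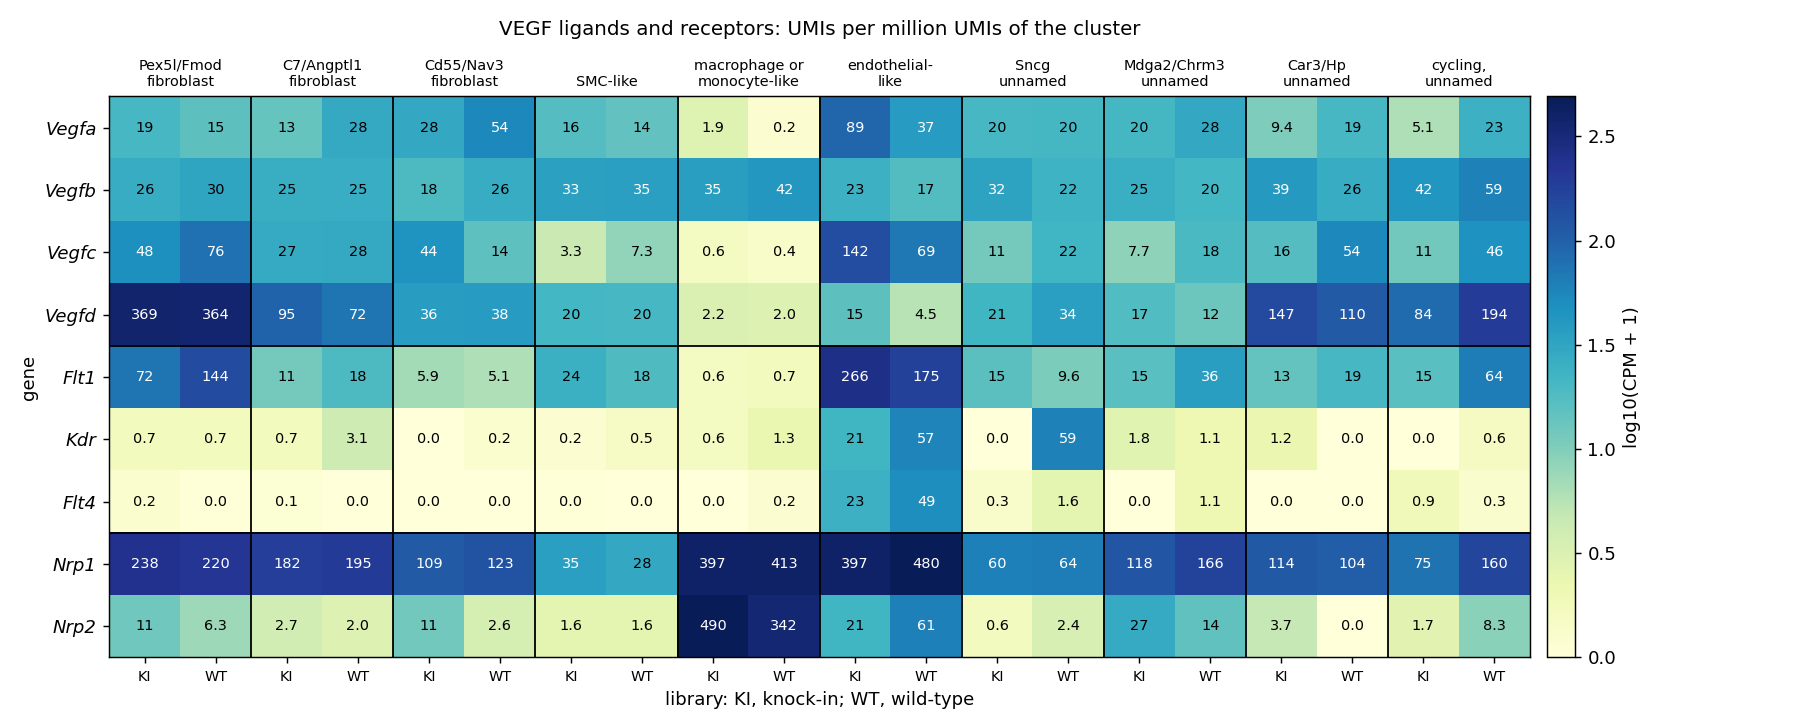
CPM of the 9 genes (rows) in the 10 clusters, each with the knock-in library (KI) left of the wild-type library (WT). Colour gives log10(CPM + 1) and the printed value is CPM. Vegfd is highest in the Pex5l/Fmod fibroblasts, Nrp2 in macrophage or monocyte-like cells and Flt1 in endothelial-like cells, followed by the Pex5l/Fmod fibroblasts. Kdr and Flt4 stand out in endothelial-like cells, with a further Kdr value of 59 CPM in the wild-type Sncg cluster.

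Endothelial-like cells were a mixture for these receptors. Cells with UMIs of at least 3 of 6 lymphatic markers (Prox1, Mmrn1, Pdpn, Reln, Ccl21a and Lyve1) were looked for after the values had been seen. Among the kept endothelial-like cells there were 0 of these in the knock-in and 5 in the wild-type library, and 1 further kept knock-in cell with these markers lay in another cluster. Clustering without doublet removal put 5 knock-in and 5 wild-type cells of this kind with the endothelial-like cells, so all 5 of these knock-in cells had been left out by their doublet scores. Those 5 cells had 5553 to 16616 UMIs, at most 2 Col1a1 UMIs and 0 Myh11 and Lyz2 UMIs.

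The lymphatic-marker cells carried Kdr, Flt4 and Nrp2 in both genotypes. Kdr had 0, 3, 4, 4 and 10 UMIs in the knock-in cells, against 2, 3, 3, 5 and 12 UMIs in the wild-type cells. Flt4 had 1, 4, 5, 6 and 15 UMIs in the knock-in cells, against 3, 3, 4, 7 and 17 UMIs in the wild-type cells. Nrp2 had 1, 4, 5, 5 and 14 UMIs in the knock-in cells, against 1, 1, 2, 2 and 30 UMIs in the wild-type cells. The ranges of the 2 genotypes overlapped for each of the 3 genes. As CPM, Kdr stood at 375 in the knock-in and 471 in the wild-type cells, Flt4 at 554 and 641, and Nrp2 at 518 and 679. The log2 ratios were -0.33 (-1.24 to 0.57) for Kdr, -0.21 (-0.96 to 0.53) for Flt4 and -0.39 (-1.15 to 0.36) for Nrp2. Nrp1 and Vegfa had 0 UMIs in all 10 cells, and Flt1 had 0 in the knock-in and 2 in the wild-type cells.

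Most other endothelial-like cells carried Nrp1, and they differed among themselves in the kinases. In the 43 knock-in and 54 wild-type cells with a UMI of Cytl1, a gene of aortic endothelium in these clusters, Nrp1 was found in 40 and 51 cells and Flt1 in 24 and 24. Flt1 stood at 251 CPM in the knock-in and 109 CPM in the wild-type Cytl1 cells, a log2 ratio of 1.20 (0.79 to 1.61). Kdr was found in 4 knock-in and 10 wild-type Cytl1 cells, at 14.99 and 18.6 CPM, and Flt4 in 9 and 7 cells, at 23.6 and 11.2 CPM. Pecam1, the pan-endothelial adhesion molecule, was found in all 43 and all 54. The 3 knock-in and 5 wild-type cells with neither Cytl1 nor 3 lymphatic markers all had both Kdr and Flt1. Pecam1 was found in 2 of these knock-in and all 5 wild-type cells, and the endothelial marker Vwf in 1 and 1. The knock-in cell without Pecam1 had 1255 UMIs in all. In these 3 and 5 cells Flt1 reached 810 CPM in the knock-in and 1830 CPM in the wild-type library from 11 and 67 UMIs. Its log2 ratio was -1.18 (-2.24 to -0.24). Kdr stood at 221 and 300 CPM in these cells, from 3 and 11 UMIs. Nrp2 stood at 295 and 246 CPM in them, from 4 UMIs in 1 knock-in cell and 9 UMIs in 3 wild-type cells.

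**Figure D2:**
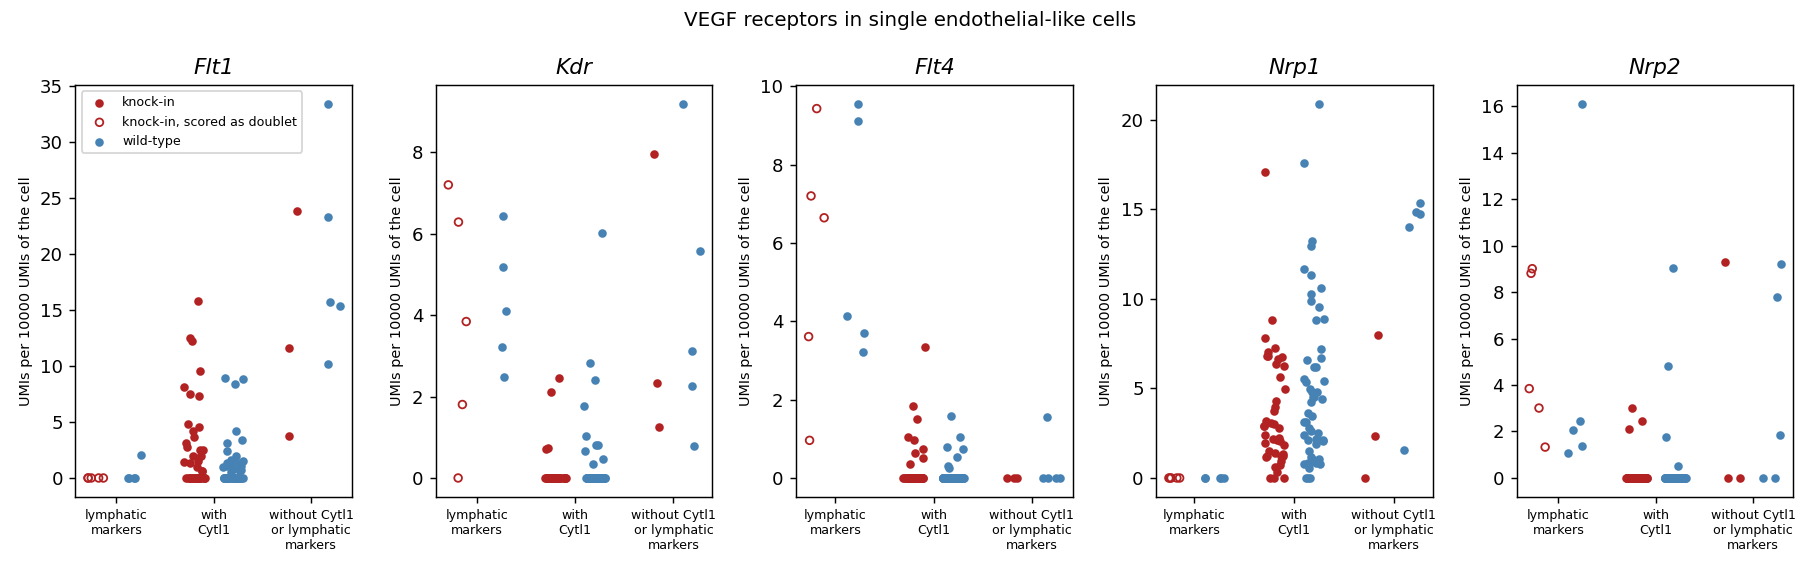
UMIs of 5 receptor genes per 10000 UMIs of the cell (y axis) in single endothelial-like cells by kind, knock-in in red left of wild-type in blue. Open circles are the 5 knock-in cells with lymphatic markers that were scored as doublets. Most cells with lymphatic markers carry Kdr, Flt4 and Nrp2 and none carries Nrp1, while Nrp1 is spread over the cells with Cytl1.

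Between genotypes, 6 of the 8 measured genes differed by at least 1.5-fold in endothelial-like cells, 3 higher and 3 lower in the knock-in library. Of all 7651 genes measured in this class 27.7% did so, 11.8% higher and 15.8% lower. Vegfa was higher in the knock-in library (43 UMIs) than in the wild-type library (33 UMIs), with a log2 ratio of 1.28 (0.59 to 1.98). Vegfc had a log2 ratio of 1.03 (0.51 to 1.55), but of 0.19 (-0.80 to 1.12) in male cells and 1.11 in female cells. Flt1 had one of 0.60 (0.25 to 0.95). It was higher in the knock-in cells with Cytl1 and lower in those with neither Cytl1 nor 3 lymphatic markers. The fibroblast marker Dcn was also higher in this class, at 749 CPM in the knock-in and 40.2 CPM in the wild-type library, and its part in these ratios was not tested. The lower genes were Kdr at -1.45 (-2.60 to -0.46), Flt4 at -1.10 (-2.21 to -0.13) and Nrp2 at -1.56 (-2.70 to -0.58). These last 3 values changed with the lymphatic-marker cells, though not alike. Without those cells the log2 ratios were -0.57 (-1.79 to 0.53) for Kdr, 0.95 (-0.43 to 2.34) for Flt4 and -0.12 (-1.38 to 1.06) for Nrp2. With the 5 knock-in cells scored as doublets put back, the log2 ratios were 0.02 for Kdr, 0.67 (0.03 to 1.32) for Flt4 and 0.24 for Nrp2, and 3 genes were past 1.5-fold. Vegfa and Vegfc kept values of 1.12 and 0.89 there, and Flt1 one of 0.44 (0.10 to 0.79). Nrp1 had a log2 ratio of -0.27 (-0.53 to -0.02) in the class.

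In fibroblast-like cells 3 of 8 measured genes differed by at least 1.5-fold, 1 higher and 2 lower, against 19.0% of the 15875 genes measured (10.1% higher and 8.89% lower). Flt1 was lower, at 46.9 CPM in the knock-in and 85.0 CPM in the wild-type library (log2 ratio -0.86, -0.94 to -0.77). Kdr was lower, with 19 UMIs in the knock-in and 88 in the wild-type library (-1.35, -2.14 to -0.62), and Nrp2 was higher, with 8.69 and 4.38 CPM (0.99, 0.73 to 1.24). Vegfd, Nrp1, Vegfa, Vegfb and Vegfc were within 1.5-fold over all cells. In cells of 8000 to 20000 UMIs Vegfd was past it, at 299 CPM in the knock-in and 180 CPM in the wild-type library (0.73), and Flt1 was not (-0.21, -0.34 to -0.08). In female cells Vegfd was past it too (0.63) and Flt1 was not (-0.50). The 3 clusters did not contribute alike.

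In the Pex5l/Fmod fibroblasts 3 of 8 genes were past 1.5-fold, against 20.2% of 14842 genes (11.5% higher and 8.63% lower). Flt1 had a log2 ratio of -0.998 (-1.09 to -0.91) and Vegfc of -0.68 (-0.79 to -0.56), and Nrp2 was higher at 0.82 (0.53 to 1.11). Flt1 was lower in the knock-in library in female cells, with 77.0 against 129 CPM, and in male cells, with 71.7 against 153 CPM. Markers of other cells were higher in the knock-in library in this cluster, with Myh11 at 42.1 and 17.7 CPM and Pecam1 at 34.9 and 11.4 CPM, and their part in these ratios was not tested. Median depth in this cluster was 12681 UMIs in knock-in and 22567 UMIs in wild-type cells. In cells of 8000 to 20000 UMIs Flt1 stood at 71.5 CPM in the knock-in and 113 CPM in the wild-type library (-0.67, -0.80 to -0.53), Vegfc had a log2 ratio of -0.40 and Nrp2 one of 1.57. When the libraries were clustered apart, the Flt1 ratio over all fibroblast-like cells was -0.25, with 1974 knock-in and 2375 wild-type cells in the class.

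The C7/Angptl1 fibroblasts had 3 of 8 genes past 1.5-fold, all lower in the knock-in library, against 18.6% of 13329 genes (5.75% higher and 12.9% lower). Vegfa stood at 12.7 CPM in the knock-in (113 UMIs) and 27.8 CPM in the wild-type library (593 UMIs), a log2 ratio of -1.13 (-1.43 to -0.84). It was -1.44 in cells of 8000 to 20000 UMIs, -1.37 in female and -1.16 in male cells. Flt1 was lower at -0.72 (-1.05 to -0.39), which shrank to -0.25 (-0.76 to 0.26) at matched depth. Kdr had 6 UMIs in the knock-in and 66 in the wild-type library. In the knock-in library those were 6 cells with 1 UMI each, and in the wild-type library 33 cells, 25 of them with 1 UMI and 6 with 3 or more, up to 15 in 1 cell. The Cd55/Nav3 fibroblasts had 3 of 7 genes past 1.5-fold, against 21.0% of 11249 genes (8.29% higher and 12.8% lower). In this cluster the smooth muscle marker Myh11 stood at 77.1 CPM in the knock-in and 1.5 CPM in the wild-type library, and its part in these values was not tested. Vegfc was higher, with 156 UMIs in the knock-in (43.6 CPM) and 67 in the wild-type library (14.4 CPM), a log2 ratio of 1.60 (1.18 to 2.04). Nrp2 was higher at 2.08 (1.12 to 3.15), with 39 and 12 UMIs, and Vegfa lower at -0.96 (-1.31 to -0.62), with 27.9 and 54.4 CPM. Vegfc was higher in female cells (1.28) and in male cells (1.91) of this cluster. Vegfa had log2 ratios of -1.15 in female and -0.73 in male cells there, and one of -0.22 (-0.98 to 0.55) in the 47 knock-in and 30 wild-type cells of 8000 to 20000 UMIs.

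**Figure D3:**
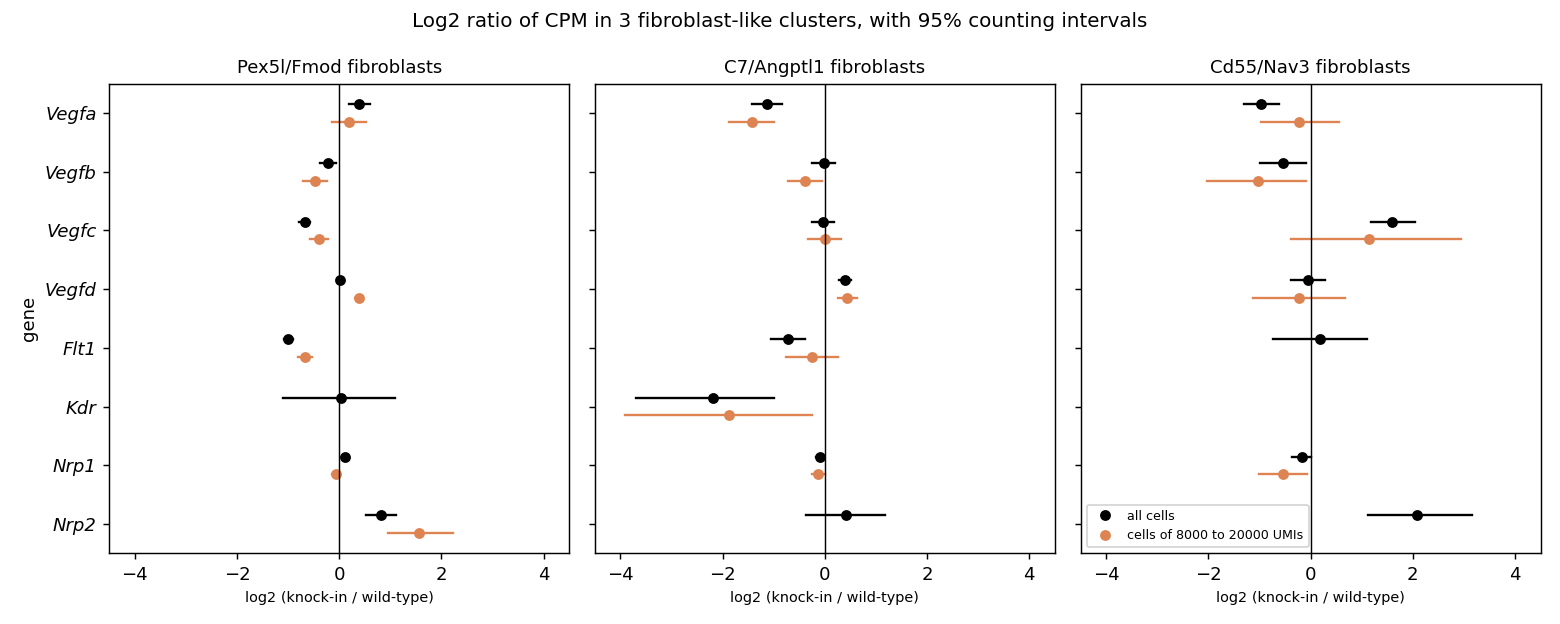
Log2 ratio of CPM, knock-in over wild-type (x axis), for 8 genes (y axis) in 3 fibroblast-like clusters, in all cells (black) and in cells of 8000 to 20000 UMIs (orange). Bars are 95% counting intervals, and values to the left of 0 are lower in the knock-in library. Vegfa is left of 0 in the C7/Angptl1 fibroblasts at both depths, and Vegfc lies on opposite sides of 0 in the Pex5l/Fmod and Cd55/Nav3 fibroblasts.

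In SMC-like cells 1 of 7 measured genes was past 1.5-fold, and it was lower, against 20.6% of 13708 genes (11.7% higher and 8.92% lower). It was Vegfc, with 102 UMIs or 3.31 CPM in the knock-in and 32 UMIs or 7.29 CPM in the wild-type library (log2 ratio -1.14, -1.72 to -0.52). The ratio was -1.23 in female and -1.17 in male cells, and -0.64 (-1.55 to 0.42) in cells of 8000 to 20000 UMIs. Free RNA carried Vegfc at 16.8 CPM in the knock-in and 19.6 CPM in the wild-type library, above both levels in these cells. Over the alternatives run, among them the subtraction of free RNA at 5% of UMIs, the ratio lay between -1.36 and -0.64. Other shares of free RNA were not run, and the part of free RNA in the difference was not tested. Flt1 had a log2 ratio of 0.44 (0.10 to 0.80) in SMC-like cells and Nrp1 of 0.31 (0.04 to 0.60), both under 1.5-fold, and neither kept its direction. Nrp1 was at -0.34 (-0.53 to -0.14) when the libraries were clustered apart, -0.10 in female and 0.64 in male cells. Flt1 was at -0.08 in cells of at least 2000 UMIs and 0.90 in female cells. Kdr had 5 UMIs in 2338 knock-in cells and 2 in 235 wild-type cells.

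In macrophage or monocyte-like cells 0 of 3 measured genes were past 1.5-fold, against 16.6% of 11220 genes (6.55% higher and 10.0% lower). Nrp2 came nearest, with a log2 ratio of 0.52 (0.43 to 0.62). In female cells Nrp2 stood at 507 CPM in the knock-in and 415 CPM in the wild-type library, and in male cells at 501 and 308 CPM. Both sexes were higher in the knock-in library, by log2 ratios of 0.29 and 0.70. Nrp1 had a log2 ratio of -0.06 (-0.15 to 0.04) in these cells.

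**Figure D4:**
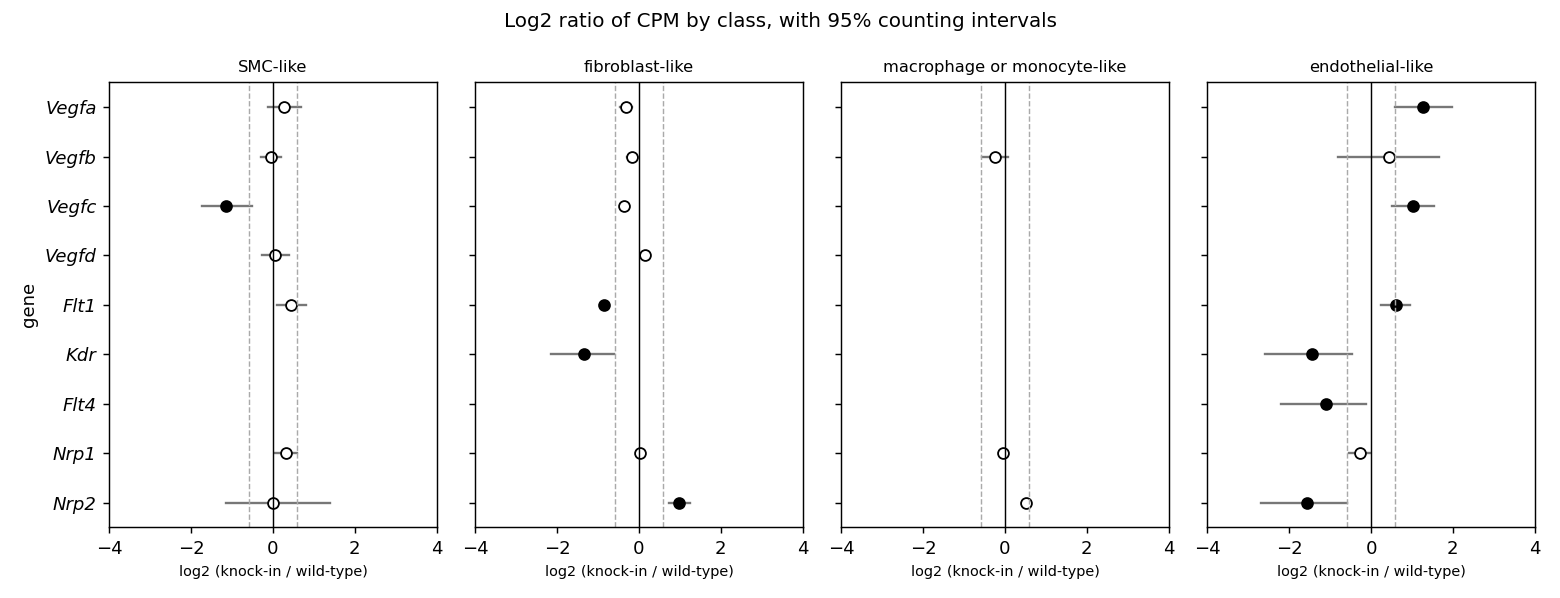
Log2 ratio of CPM, knock-in over wild-type (x axis), of the measured genes (y axis) in 4 classes, with 95% counting intervals as bars, some of them narrower than the symbol. Filled circles are past 1.5-fold (dashed lines) and open circles are not. Endothelial-like cells have 6 filled circles, of which Kdr, Flt4 and Nrp2 lie to the left of 0.

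Over all kept cells Vegfc stood at 20.8 CPM in the knock-in and 45.1 CPM in the wild-type library, and Flt1 at 32.9 and 72.5 CPM. The share of fibroblast-like cells given above was also lower in the knock-in library, and its part in these whole-library values was not tested. Vegfb, with its even levels, stood at 29.8 and 30.6 CPM.

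The wider pathway was read from 69 other genes in 6 lists, which were chosen, like the 9 genes, with earlier results of these data known. In SMC-like cells 10 of 56 measured genes were higher and 6 lower, with a median log2 ratio of 0.06 against -0.02 over all genes. In fibroblast-like cells 8 of 62 were higher and 7 lower, with a median of -0.01 against -0.05. In macrophage or monocyte-like cells 6 of 37 were higher and 4 lower, with a median of 0.06 against -0.02. In endothelial-like cells 8 of 43 were higher and 5 lower, with a median of 0.24 against -0.05. The shares of all genes past 1.5-fold are those given for each class above.

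Of 12 regulators of VEGF ligand genes, 2 were higher and 0 lower in SMC-like cells, against 11.7% and 8.92% of all genes. In fibroblast-like cells 1 of 12 was higher and 0 lower, against 10.1% and 8.89%. In macrophages 0 of 10 were past 1.5-fold, against 16.6%. In endothelial-like cells 2 of 8 were higher and 1 lower, against 11.8% and 15.8%. Epas1, which encodes the hypoxia-inducible factor HIF-2alpha, was the regulator past 1.5-fold in the most classes. It stood at 42.4 CPM in the knock-in and 26.0 CPM in the wild-type library in SMC-like cells. In fibroblast-like cells it stood at 15.6 and 6.27 CPM, and in endothelial-like cells at 1038 and 561 CPM. It was higher in the knock-in library in these 3 classes, while in macrophages, with 11 and 17 UMIs, it was not (log2 ratio -0.05). Of 12 hypoxia targets, 3 were higher and 1 lower in SMC-like cells, against 11.7% and 8.92% of all genes. Pfkfb3, a driver of glycolysis, stood there at 26.9 CPM in the knock-in and 8.65 CPM in the wild-type library. In macrophages Pfkfb3 stood at 166 and 96.6 CPM. There 2 of 8 targets were higher and 1 lower, against 6.55% and 10.0% of all genes. In endothelial-like cells 0 of 9 were past 1.5-fold in either direction, against 27.7% of all genes. Ldha, lactate dehydrogenase, stood there at 231 and 237 CPM. In fibroblast-like cells 2 of 11 were higher and 1 lower, against 10.1% and 8.89% of all genes. There Ndrg1 stood at 68.6 and 41.0 CPM, and Adm, the vasodilator adrenomedullin, at 25.9 and 47.8 CPM.

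Among the class 3 semaphorins, Sema3e in fibroblast-like cells stood at 9.66 CPM in the knock-in and 2.90 CPM in the wild-type library, and Sema3a at 1.13 and 2.88 CPM. In endothelial-like cells Sema3d had 3 UMIs in the knock-in and 57 in the wild-type library, and Sema3a 0 and 24. With the lymphatic-marker cells scored as doublets put back these became 38 and 57 UMIs of Sema3d and 19 and 24 UMIs of Sema3a, with log2 ratios of 0.15 and 0.40. Sema3g, chosen after its values were seen, had 88 UMIs in the knock-in and 52 in the wild-type library with or without those cells. Of the genes tied to receptor signalling, 2 of 10 were higher and 2 lower in SMC-like cells, against 11.7% and 8.92% of all genes. Nr4a1, an early response gene, was higher there, at 301 and 164 CPM, as was Angpt2, a TIE2 ligand, at 30.9 and 14.4 CPM. Rcan1, a calcineurin regulator, was lower there, at 44.1 CPM in the knock-in and 78.6 CPM in the wild-type library, as was Ptprb, an endothelial phosphatase, at 0.974 and 2.28 CPM. In 3 of 11 genes of this list the knock-in library was higher and in 1 lower in endothelial-like cells, against 11.8% and 15.8% of all genes. Nr4a1 was higher there, at 322 and 122 CPM. Tek, the receptor of Angpt2, stood at 6.63 and 14.98 CPM in fibroblast-like cells and at 529 and 499 CPM in endothelial-like cells. Thbs1, an inhibitor of blood vessel growth, was lower in fibroblast-like cells, at 22.1 and 40.1 CPM, and in endothelial-like cells, at 341 and 695 CPM.

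Pgf, the placental growth factor that binds FLT1, was chosen after its values were seen. In Pex5l/Fmod fibroblasts it had 177 UMIs in the knock-in (9.52 CPM) and 84 in the wild-type library (2.74 CPM), a log2 ratio of 1.80 (1.41 to 2.19). In Cd55/Nav3 fibroblasts it had 31 UMIs in the knock-in (8.66 CPM) and 134 in the wild-type library (28.7 CPM), a log2 ratio of -1.73 (-2.34 to -1.16). In the C7/Angptl1 fibroblasts the log2 ratio was 0.09 (-0.34 to 0.50).

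The genes most like each member were ranked by Pearson correlation of log2(CPM + 1) over 19 points, the clusters of either library with at least 50 cells, among 13305 genes. For Vegfd they were Spry1 (0.91), Col1a1 (0.91) and Gria4 (0.91), and for Vegfc Rflnb (0.93), Tspan12 (0.92) and Col4a4 (0.91). For Vegfa they were Rhoj (0.95), Calu (0.94) and Grb10 (0.93), and for Vegfb Zfand4 (0.85), Rnf5 (0.85) and Pole4 (0.82). Flt1 was most like Sntg2 (0.91), Prex2 (0.91) and Sncaip (0.90), Nrp1 like Man1c1 (0.93), Icam1 (0.93) and Kctd12 (0.92), and Nrp2 like Parp14 (0.93), Dusp16 (0.93) and Naip2 (0.92). Kdr was most like Cldn15 (0.94), Pkhd1l1 (0.91) and Unc45b (0.90). Flt4 had too few UMIs for this ranking. These lists depended on the measure: by Spearman correlation 0 of the 3 genes recurred for Vegfa, Kdr and Nrp2, 1 for Vegfb, Vegfc and Flt1, 2 for Vegfd and 3 for Nrp1, and over the knock-in clusters alone at most 1 recurred for any gene. Points of 1 library share that library, and knock-in endothelial-like cells were under 50.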

How the data were processed

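The deposited values are UMI counts per gene and barcode with no cell filter, credited to Cell Ranger 7.1.0 by the submitters' processing notes and per the file headers. Neither the genome build nor the annotation is given in the sources used here. Cells were barcodes with at least 1000 UMIs, 500 genes and at most 10% mitochondrial UMIs. The highest doublet scores (scrublet in scanpy 1.11.5, 0.8% per 1000 cells) were left out, 330 knock-in and 109 wild-type cells. The automatic threshold called 120 and 4. Both libraries were clustered together on 2000 variable genes, 30 principal components and 15 neighbours (Leiden, resolution 0.5, igraph 0.11.9), with the 9 genes kept out. Clusters were named from 21 marker lists. A cluster stayed unnamed where a second list passed 0.65 of the best score. It also stayed unnamed where another list had more genes among the cluster's leading genes than the best list. Too few detected markers, or low depth with no marker of the best list among the leading genes, left it unnamed too.

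UMIs were summed per library and class. CPM carry exact Poisson, ratios exact conditional binomial and shares Clopper-Pearson intervals at 95%. A count of 0 was set to 3 for ratios. With 1 library per genotype no test was possible. Only the ratio intervals were run on simulated counts, for SMC-like and endothelial-like cells. Those counts were drawn from the counting model that the intervals assume, so the run says nothing about spread between cells or animals. All 9 genes are named in each class. From each pathway list the rule names the 2 members with the most UMIs and the 2 past 1.5-fold with the largest ratio. Some of these are printed. For each of the 9 genes with at least 200 UMIs the 3 most like genes are named. The 9 genes, the lists and the rules were chosen with earlier results of these data known, and the lymphatic-marker, mesothelial-marker and Cytl1 sets were chosen after values were seen. Alternatives were the clustering, depth, sex, scaling and free RNA settings described in the closing section. Tools were Python 3.11.15, pandas 2.3.3, scipy 1.17.1, numpy 2.4.6 and matplotlib 3.10.9. Promoter sequences came from RefSeq (GRCm38.p6).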

Additional observations from a re-analysis of the deposited data

Results flagged for a closer look

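Of the 9 genes, 4 were past 1.5-fold in opposite directions in different cells, with counting intervals that left out 0 on both sides. For each gene the highest and the lowest such ratio are given, so the gaps below lie between selected extremes. The share of all genes that do so was not counted. In the classes and fibroblast clusters searched, 16.6% to 27.7% of all measured genes were past 1.5-fold. None of the differences in the 4 genes was tested, since there was 1 library per genotype. Vegfa had a log2 ratio of 1.28 in endothelial-like cells and -1.13 in C7/Angptl1 fibroblasts, a gap of 2.41. Vegfc had 1.60 in Cd55/Nav3 fibroblasts and -1.14 in SMC-like cells, a gap of 2.74. Flt1 had 0.60 in endothelial-like cells and -0.998 in Pex5l/Fmod fibroblasts, a gap of 1.60. Its endothelial value was 0.53 without the lymphatic-marker cells, under 1.5-fold, and was under 1.5-fold too with those scored as doublets put back. Nrp2 had 2.08 in Cd55/Nav3 fibroblasts and -1.56 in endothelial-like cells, a gap of 3.65, and its endothelial value became 0.24 once the lymphatic-marker cells scored as doublets were put back.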

How the results depend on the processing

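No paired analysis was possible because there was 1 library per genotype, and for the same reason no library could be left out. Animal, dissection and genotype cannot be told apart. Low depth limits Kdr and Flt4, and endothelial-like values rest on 46 knock-in and 64 wild-type cells.

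Of the 9 genes, the number past 1.5-fold in SMC-like cells was 1, and it was 2 with free RNA subtracted, 2 with genes counted from 5 UMIs, 3 in female and 2 in male cells. In fibroblast-like cells it was 3, and 1 at 2-fold. In macrophage or monocyte-like cells it was 0, and 1 in male cells, 2 from 5 UMIs and 3 without doublet removal. In endothelial-like cells it was 6, and 2 in male cells, 3 without the lymphatic-marker cells and 3 with those scored as doublets put back. Of the pathway genes, 16 in SMC-like cells became 6 at 2-fold, 15 in fibroblast-like cells became 8 at 2-fold and 23 in the Cd55/Nav3 cluster alone, and 10 in macrophages became 5 at 2-fold, 18 from 5 UMIs, 4 from 50 UMIs and 19 without doublet removal. The 13 in endothelial-like cells became 6 at 2-fold, 20 from 5 UMIs and 8 with the lymphatic-marker cells scored as doublets put back. Shares of all genes were counted only from 20 UMIs at 1.5-fold with the main clustering. Apart from the single-cluster value, the counts under alternatives thus have no such share beside them, and their changes may follow all genes.

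Log2 ratios past 1.5-fold turned round in 8 cases. A case is a ratio under an alternative, so the same ratio can be listed more than once. In fibroblast-like cells Kdr became 0.028 in the Pex5l/Fmod cluster alone and Flt1 0.19 in the Cd55/Nav3 cluster alone. In endothelial-like cells Flt4 became 0.53 and Nrp2 0.15 without doublet removal, and Flt4 0.95 without the lymphatic-marker cells. With those scored as doublets put back, Kdr became 0.020, Flt4 0.67 and Nrp2 0.24. Vegfc in SMC-like cells lay between -1.36 and -0.64 and Vegfa in endothelial-like cells between 0.83 and 1.91 over the alternatives run, while in endothelial-like cells Flt1 lay between 0.41 and 1.03 and Vegfc between 0.19 and 1.12. Flt1 in fibroblast-like cells lay between -1.01 and -0.21 outside the single-cluster values. Among ratios under 1.5-fold there were 36 cases of a turned sign, counted the same way. In 6 of these both counting intervals left out 0. They were Nrp1 in SMC-like cells with separate clustering (-0.34), Vegfd in male fibroblast-like cells (-0.09), Vegfa in the Pex5l/Fmod cluster alone (0.39), Vegfc in the Cd55/Nav3 cluster alone (1.60), Nrp1 in male C7/Angptl1 fibroblasts (0.13) and Nrp1 in female Pex5l/Fmod fibroblasts (-0.19). The causes were not tested. The single-cluster, lymphatic-marker and mesothelial-marker alternatives were chosen after seeing the data.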
